A study of Mus musculus with 24 samples.

Results

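The gap between FFPE and frozen liver was set against the same gap in brain, heart and kidney, gene by gene, in H3K4m3 profiles of mouse organs. For each gene the value of frozen tissue was subtracted from that of FFPE tissue (formalin-fixed and paraffin-embedded) within each organ. The liver excess of a gene is its liver difference minus the mean of the differences in the 3 other organs, on a log2 scale, so that a negative excess means that FFPE liver lay further below frozen liver than the other organs lay below theirs. All genes with a mean log2 value of at least 2 over the 8 columns were taken, which were 21530 of the 27179 genes in the deposited table. Each organ has 1 column for each preservation type, called a library below. The liver difference therefore rests on 2 libraries, has no replicate of its own, and is given mainly as a description.

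Trimethylation of histone H3 at lysine 4, written H3K4m3 here, sits on nucleosomes around the start sites of active genes and of many genes that are ready to be activated. Chromatin immunoprecipitation with an antibody against the mark, followed by sequencing, counts the DNA fragments that carry it. Hepatocytes, which make up most of the mass of the liver, secrete the proteins of blood plasma, make bile acids, handle glucose and nitrogen, and inactivate drugs and hormones. Most of the genes for these tasks are active in hepatocytes and silent or low in brain and heart, while kidney tubules share some of them.

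The study took brain, heart, kidney and liver from mice and either flash froze each organ or fixed it in formalin and embedded it in paraffin. Strain, sex, age and animal numbers are not stated in the labels, and no group carried a further treatment. Cores of frozen tissue were crosslinked with formaldehyde after thawing and then sheared by ultrasound, while FFPE tissue was freed of paraffin, rehydrated, heated in an extraction buffer and then sheared, so fixation and chromatin preparation cannot be told apart. The labels list 24 samples, of which 4 frozen and 8 FFPE samples are H3K4m3 libraries and 12 are inputs. Nothing tells whether an FFPE column holds 1 or both FFPE samples of that organ, and input libraries were not analysed here.

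Depth ran from 1792394 reads in frozen heart to 5275085 in FFPE kidney, with 2976029 reads in frozen liver and 3800135 in FFPE liver. Most listed genes of an organ were highest in the libraries labelled with it. Of 301 genes on the liver lists described below, 276 peaked in liver in frozen tissue and 262 in FFPE tissue. In brain 26 of 28 neuron markers were highest in either preservation type, and glia markers less often, 12 of 18 in frozen and 10 in FFPE tissue. Of 32 heart muscle genes 26 peaked in frozen and 28 in FFPE heart. Of 32 kidney tubule genes 24 peaked in frozen and 28 in FFPE kidney. Frozen liver had the widest spread of log2 values over genes, with an SD of 1.88 against 1.61 to 1.68 in the other frozen libraries, while FFPE liver, with 1.23, lay inside the FFPE range of 1.19 to 1.28. The authors' scaling factors on library size were 0.857 for frozen liver and 1.13 for FFPE liver, the lowest and the highest of the 8. Genes of the mitochondrial genome took 3.08% of reads in frozen and 5.04% in FFPE liver, against a move from 4.05% to 17.0% in heart and from 3.33% to 11.8% in kidney. The part of these library properties in the results was not tested, other than by the settings named beside them.

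Liver differences were spread more widely than those of the other organs, in both directions. Their SD over genes was 1.11, against 0.79 in brain, 0.86 in heart and 0.80 in kidney, although the medians of all genes lay close together, at -0.09 in brain, -0.02 in heart, -0.02 in kidney and -0.01 in liver. In liver 3715 genes (17.3%) lay more than 2-fold lower in FFPE than in frozen tissue, against 1125 (5.23%) in brain, 1510 (7.01%) in heart and 1691 (7.85%) in kidney. Past 2-fold in the upward direction lay 4845 genes (22.5%) in liver, 2666 (12.4%) in brain, 2954 (13.7%) in heart and 2527 (11.7%) in kidney. Of the 3715 genes that were more than 2-fold lower in FFPE liver, 1989 passed that mark in no other organ and 271 passed it in all 4. The liver difference was below those of all 3 other organs for 7518 genes (34.9%) and above all 3 for 6373 (29.6%). After every library was scaled to the same spread, the SD was still highest in liver, at 0.87 against 0.66 to 0.77, and 9.33% of genes were more than 2-fold lower in FFPE liver against 4.89% to 6.67% in the other organs.

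**Figure D1:**
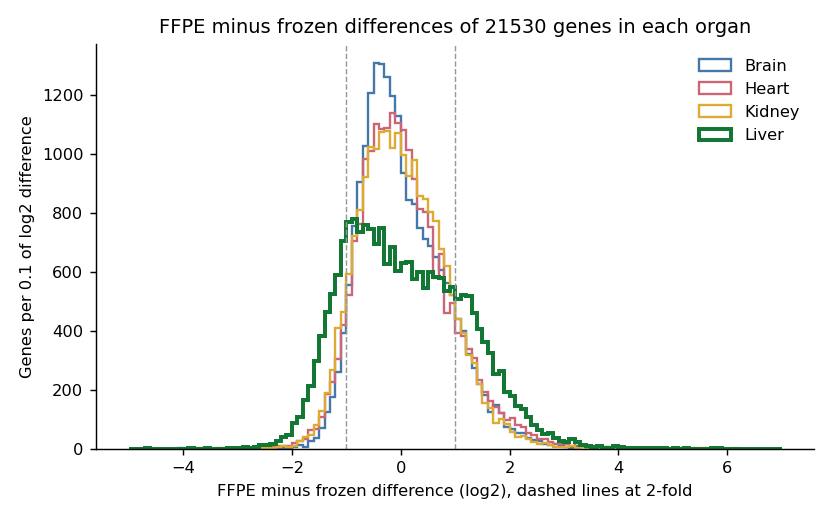
Number of genes (vertical axis, per 0.1 of log2) by FFPE minus frozen difference (horizontal axis, log2) in brain, heart, kidney and liver, with dashed lines at 2-fold. The curve for liver is lower in the middle and wider on either side, with 3715 genes below -1 and 4845 above 1.

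Tested gene by gene with limma, 131 genes (0.608% of those tested) had a lower and 189 (0.878%) a higher difference in liver than in the other organs at an adjusted p under 0.05. The test takes its error from the scatter of the 3 other differences, with 2 residual degrees of freedom per gene and 13.6 borrowed from all genes, and assumes that the lone liver difference would vary like them. Ranks alone cannot decide here, since with 4 differences the smallest one-sided exact permutation p is 0.25. The same model with brain, heart or kidney set apart called 0 genes each with limma, with 504, 837 and 254 at an unadjusted p under 0.05. In those fits the widely spread liver difference is part of the error, so they are no fair contrast with liver, for which 3990 genes had such a p. The counts depend on the scaling: with all 8 libraries scaled to equal spread 4 genes were lower and 11 higher, and after quantile normalization 7 and 20. The split also moved with other settings, to 351 lower and 105 higher with precision weights, 70 and 601 with library totals in place of the authors' scaled sizes, and 86 and 58 without brain, 363 and 397 without heart, and 298 and 384 without kidney. The sign of the excess was kept by all 131 and all 189 genes wherever they were tested again. This adds no support, as they were picked for a large excess and every setting reuses the same liver libraries.

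Frozen liver was the highest frozen library for 126 of the 131 lower genes, against 7541 of all 21530, which the call favours because that value enters the difference with a minus sign. FFPE liver was the highest FFPE library for 76 of them, against 5993 of all genes. Their median difference was -1.76 in liver and between 0.21 and 0.31 in the other organs, and 60 of them were higher in FFPE than in frozen tissue in each of brain, heart and kidney, while 41 were lower in each. Of all tested genes 6306 were higher and 7613 lower in each of these organs. Of the 131, 35 belong to the lists of liver functions and 4 to lists of broadly active genes. Fewer hepatocytes in a piece of tissue and less mark per hepatocyte cannot be told apart in libraries of whole tissue.

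Below all others that passed lay the small nucleolar RNA gene Snord118, at -4.44 on 22 reads in frozen and 1 in FFPE liver, and 4930440C22Rik, at -4.09 on 12 and 3 reads. Both were chosen for mention after their values were seen. Of the 14 genes named by a rule that asks for at least 50 reads in frozen liver, 12 encode secreted proteins or enzymes known from hepatocytes and 2 are predicted genes. The first 3 were Inhbc, the inhibin beta C subunit of a secreted growth factor of the liver, Apon, an apolipoprotein, and Cpn1, the catalytic subunit of carboxypeptidase N, a plasma enzyme that inactivates kinins and complement peptides. Their promoters are shown with that of Hspa5, a broadly active gene met below and chosen after its values were seen, because H3K4m3 is laid down around such start sites and the CpG pairs in them differ widely in number. Each runs from 250 bases before to 50 after the start site (RefSeq, build GRCm38.p6, 5′ to 3′ on the strand of the gene), with CpG pairs in capitals.
Inhbc: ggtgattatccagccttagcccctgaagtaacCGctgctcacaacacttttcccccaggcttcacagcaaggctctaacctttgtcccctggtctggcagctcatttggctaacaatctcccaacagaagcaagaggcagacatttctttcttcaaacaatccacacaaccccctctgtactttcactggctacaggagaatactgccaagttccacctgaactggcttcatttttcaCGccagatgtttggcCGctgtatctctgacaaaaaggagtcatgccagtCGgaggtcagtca
Apon: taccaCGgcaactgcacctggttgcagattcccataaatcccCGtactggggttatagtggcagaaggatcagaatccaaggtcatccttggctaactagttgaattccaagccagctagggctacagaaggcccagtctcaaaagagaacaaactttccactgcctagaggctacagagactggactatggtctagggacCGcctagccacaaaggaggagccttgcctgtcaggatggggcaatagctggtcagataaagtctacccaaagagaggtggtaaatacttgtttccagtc
Cpn1: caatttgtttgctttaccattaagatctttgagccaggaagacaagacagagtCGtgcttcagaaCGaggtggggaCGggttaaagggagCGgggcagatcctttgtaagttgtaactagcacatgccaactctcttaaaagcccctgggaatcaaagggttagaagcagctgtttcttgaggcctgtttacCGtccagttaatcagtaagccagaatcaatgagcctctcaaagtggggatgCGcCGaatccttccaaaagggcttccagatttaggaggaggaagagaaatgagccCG
Hspa5: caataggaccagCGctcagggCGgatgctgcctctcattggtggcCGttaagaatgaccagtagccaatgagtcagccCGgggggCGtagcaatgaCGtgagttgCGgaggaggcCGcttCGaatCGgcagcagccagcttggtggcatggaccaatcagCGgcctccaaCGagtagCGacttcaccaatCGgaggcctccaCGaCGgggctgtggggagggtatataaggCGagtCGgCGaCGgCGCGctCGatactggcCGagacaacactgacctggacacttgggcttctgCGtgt
The Inhbc promoter (chr10:127370499-127370798, minus strand) holds 4 CpG pairs, that of Apon (chr10:128253881-128254180, plus strand) 3, that of Cpn1 (chr19:43986471-43986770, minus strand) 8 and that of Hspa5 (chr2:34771840-34772139, plus strand) 25, where the median of 32851 mouse promoters of this window is 7. Over the 16001 tested genes with a promoter at hand the median per gene was 16. Comparisons of gene sets by promoter sequence are not reported, since a promoter was at hand for 74.3% of the tested genes only, which makes such a check void.

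Inhbc (gene ID 16325, chromosome 10, 127356322 to 127370548) had a log2 value of 7.01 in frozen and 5.48 in FFPE liver. In brain it moved from 2.86 in frozen to 3.47 in FFPE tissue, in heart from 0.50 to 3.95 and in kidney from 1.55 to 4.22. Its liver difference of -1.53 thus stood against positive differences in the 3 other organs, and the excess was -3.78 ± 0.89 (SE, adjusted p = 0.0483). Frozen heart and frozen kidney held only 2 and 6 reads of Inhbc, so those differences carry large counting errors. Apon (gene ID 28194, chromosome 10, 128254131 to 128255901) was at 8.58 in frozen and 6.81 in FFPE liver, at 1.43 and 3.70 in brain, at 1.63 and 4.69 in heart and at 3.21 and 3.74 in kidney. Liver libraries stayed above all others in both preservation types, 977 reads frozen and 481 FFPE, while the distance to the other organs shrank from both sides. The excess of Apon was -3.72 ± 0.76 (adjusted p = 0.0285).

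Cpn1 (gene ID 93721, chromosome 19, 43956307 to 43986551) showed the pattern with even differences in the other organs. It was 4.15-fold lower in FFPE liver (log2 6.73 frozen, 4.68 FFPE) and higher in FFPE tissue by 1.42 in brain, 1.74 in heart and 1.53 in kidney. FFPE kidney, at 4.81, had overtaken FFPE liver. The excess was -3.62 ± 0.58 (adjusted p = 0.0154). Apcs, the serum amyloid P component, had a still lower excess of -4.58 ± 1.21 but did not pass (adjusted p = 0.0707), as its 0 reads in frozen heart set a difference of 4.48 there. The 11 further genes named by the rule had an excess between -3.53 and -3.15, and their liver differences ran from -2.57 in Tat to -1.32 in Ugt1a1. They were Cyp8b1, Agxt, Apoc1, Gm8883, Crp, Tat, Cyp3a11, Mug1, Gm17830, Fgg and Ugt1a1, all described below by their roles except Mug1, a protease inhibitor of mouse plasma, and the predicted genes Gm8883 and Gm17830. Many of them held few reads in the other frozen organs, so those differences carry large counting errors. Gm8883 had 6, 4 and 2 reads in frozen brain, heart and kidney. Crp and Apoc1 had 3 and Agxt 5 in frozen heart, and Cyp8b1 had 4 in frozen brain. The mean used as filter includes liver, and Gm8883 had log2 values of only 0.17 to 2.85 in the other organs.

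**Figure D2:**
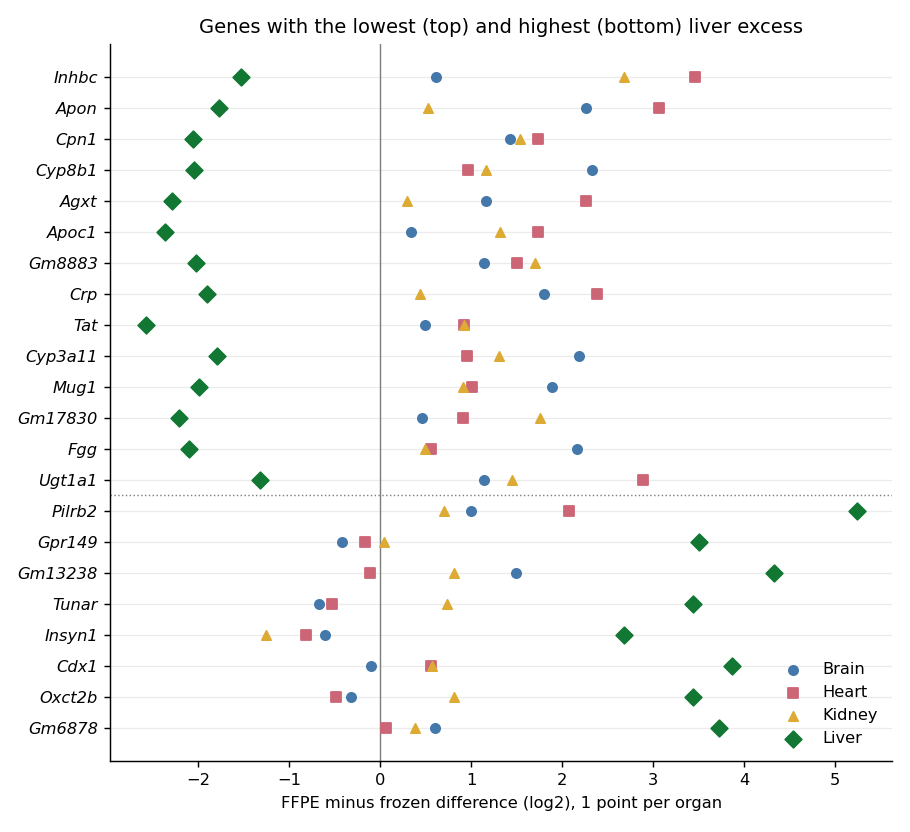
FFPE minus frozen difference (log2, horizontal axis) in brain, heart, kidney and liver, 1 point per organ, for the 14 genes named for the lowest liver excess (above the dotted line) and the 8 named for the highest (below it), each with at least 50 liver reads, frozen or FFPE. In the upper block the liver points lie between -2.57 and -1.32 and the points of the other organs lie above 0; in the lower block the liver points lie between 2.68 and 5.24.

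Genes of liver functions were gathered in 15 lists with 301 tested genes. Their median difference was -0.95 in liver, against 0.57 in brain, 0.54 in heart and 0.31 in kidney, and the median excess was -1.41, where that of all tested genes was -0.05. Of the 301 genes 248 lay below all 3 other organs, where 34.9% of all tested genes did, and 135 were more than 2-fold lower in FFPE liver, where 17.3% of all did. With limma 35 passed as lower (0.608% of all) and 0 as higher (0.878% of all). The same shares of all genes are the background for the counts of each list below. At an unadjusted p under 0.05, 175 were lower. With equal spread or quantile normalization 0 of the 301 passed in limma, with 68 and 72 at an unadjusted p under 0.05, and the median excess was -0.66 in either setting. In brain, heart and kidney these genes were near the low end of the scale, with medians of 3.46, 3.46 and 3.92 in frozen tissue, against 6.38 in frozen liver. Families with near-identical copies, such as the major urinary proteins, the Serpina1 and Serpina3 genes, Cyp2c, Cyp2d and Ugt1a, are uncertain gene by gene, since reads can be split or shared between copies.

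Among secreted proteins, the 20 apolipoproteins and lipid carriers had a median of -1.53 in liver and 0.30, 0.91 and 1.00 in brain, heart and kidney, with 18 below all other organs and 5 passing. Apoa1, the main protein of high-density lipoprotein, was at 7.66 in frozen and 4.66 in FFPE liver, while its differences in brain, heart and kidney were -0.90, -0.45 and -0.30. It was thus lower in FFPE tissue in all 4 organs, with an excess of -2.45 ± 0.43 (adjusted p = 0.0169). Apob, the backbone of very low-density lipoprotein, passed with an excess of -1.93 ± 0.29, Lcat, which esterifies plasma cholesterol, with -2.95 ± 0.59, and Apoc1 and Apof, carried on lipoproteins, with -3.50 and -2.51. Pltp, a phospholipid transfer protein, had the highest excess of the list, 0.54 ± 0.43, and did not pass (adjusted p = 0.533).

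Among 23 plasma carriers and acute-phase proteins, 21 lay below all other organs, 4 passed as lower, and the median was -1.07 in liver against 0.82 to 0.86 in the others. Alb, which encodes albumin, had a log2 value of 7.02 in frozen and 4.98 in FFPE liver, with differences of 0.38 in brain, 0.93 in heart and 1.31 in kidney, and an excess of -2.91 ± 0.58 (adjusted p = 0.0273). Ttr, a carrier of thyroid hormone and retinol, passed with -2.68, Ahsg, an inhibitor of calcification, with -3.03 and Crp, C-reactive protein, with -3.44. Saa1, a serum amyloid A gene that is strongly induced in the acute phase, had the highest excess, -0.04, from a low level in frozen liver of 3.26 against 3.80 in FFPE liver. The clotting factors followed the same order: 22 of 24 lay below all other organs and 3 passed, the fibrinogen chain Fgg at -3.17, antithrombin (Serpinc1) at -2.34 and vitronectin (Vtn) at -1.87. Of 21 complement factors 20 lay below all others and C8g alone passed, at -1.78 ± 0.37. Complement C3 had a liver difference of only -0.04, with an excess of -0.71 that did not pass (adjusted p = 0.294). None of 13 liver serpins passed with limma, although 12 lay below all other organs and the median excess was -1.78, and the same held for 12 major urinary proteins, with 10 below all others and a median excess of -2.08.

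Enzymes of nitrogen and amino acid metabolism were lower in FFPE liver with few exceptions. Of 27 genes of amino acid breakdown, 25 lay below all other organs and 5 passed: Agxt, which detoxifies glyoxylate, at -3.53, Tat, the first step of tyrosine breakdown, at -3.35, Tdo2, which opens tryptophan, at -3.07, Hal, which removes ammonia from histidine, at -2.16 and Gldc, of the glycine cleavage system, at -1.71. Tat was at 7.62 in frozen and 5.05 in FFPE liver, or 501 and 141 reads, and its differences in brain, heart and kidney were 0.49, 0.92 and 0.92. In the urea cycle Arg1, Nags and Cps1 passed, with an excess of -3.10, -2.47 and -1.74. Glul, which makes glutamine and in liver is confined to cells around the central vein, had an excess of 0.06 ± 0.35 (adjusted p = 0.944).

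Of 16 genes of glucose metabolism 13 lay below all other organs and 1 above them, and 2 passed as lower and 0 as higher. In FFPE liver 15 were lower and 1 was more than 2-fold higher, and the highest excess of the list was 2.32. Pck1, which commits carbon to glucose synthesis, had the largest fall of its list, from 8.14 in frozen to 5.32 in FFPE liver. Its differences were 0.42 in brain, 0.67 in heart and -1.47 in kidney, the other organ that makes glucose, and the excess was -2.69 ± 0.61 (adjusted p = 0.0416). Ppp1r3c, which targets a phosphatase to glycogen, passed at -2.19, and G6pc, which releases free glucose, had an excess of -2.15 that did not pass (adjusted p = 0.0748), like Igfbp1, an insulin-repressed secreted protein, at -2.34 (adjusted p = 0.102).

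For bile acids 16 of 17 genes lay below all other organs, and Cyp8b1, which makes cholic acid, passed with the lowest excess. It was at 8.88 in frozen and 6.83 in FFPE liver, with differences of 2.33 in brain, 0.97 in heart and 1.16 in kidney, and an excess of -3.53 ± 0.63 (adjusted p = 0.018). Hsd3b7, which acts early in the pathway, passed at -1.96, the bile acid ligase Slc27a5 at -2.68 and the organic anion transporter Slco1a1 at -2.72. Cyp7a1, the rate-limiting enzyme, had a liver difference of -0.74 and an excess of -1.41 ± 0.58 (adjusted p = 0.211), and Cyp7b1, of the alternative pathway, had an excess of 0.00 ± 0.47. Among 27 liver P450 enzymes 26 lay below all others and Cyp2d9, Cyp2f2, Cyp3a11 and Cyp2c68 passed, between -3.27 and -2.74. Of 25 conjugation enzymes 17 lay below all others and Ugt1a1, which conjugates bilirubin, passed at -3.15 ± 0.57 (adjusted p = 0.0191).

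The gap was small in some liver pathways. Of 19 genes of fatty acid oxidation and ketone bodies 10 lay below all other organs, and 0 passed with limma. In FFPE liver 16 were lower, 5 of them more than 2-fold, with a median liver difference of -0.48. The median excess was -0.23, with members from -2.32 to 1.12. Among the 3 that were not lower, Cpt1a, the gate to mitochondrial oxidation, had a liver difference of 0.04. Cyp4a14, a fatty acid hydroxylase, was at 3.14 in frozen and 4.91 in FFPE liver. Sterol and fatty acid synthesis, which all organs carry out, had a median excess of -0.09 over 24 genes, with 0 passing in limma. Fasn, the fatty acid synthase, had a liver difference of -0.10. These genes are also marked in brain, heart and kidney, where their lists had medians between -0.22 and -0.10.

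The transcription factors that maintain hepatocyte identity were lower as well. Of 23 factors 22 lay below all other organs, with a median of -1.07 in liver and of 0.30, 0.33 and -0.25 in brain, heart and kidney, and 3 passed. Creb3l3, a liver factor of lipid and fasting responses, was at 7.79 in frozen and 6.01 in FFPE liver, with an excess of -2.91 ± 0.48 (adjusted p = 0.0159). The drug receptor Nr1i3 passed at -2.81 and the pioneer factor Foxa1 at -1.90. Foxa2 (-1.97, adjusted p = 0.0741) and Hnf4a (-1.34, adjusted p = 0.166) did not pass. Onecut1 was the exception of the list, with a liver difference of -0.84 that lay inside the range of the others, -1.50 in brain to -0.11 in kidney.

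**Figure D3:**
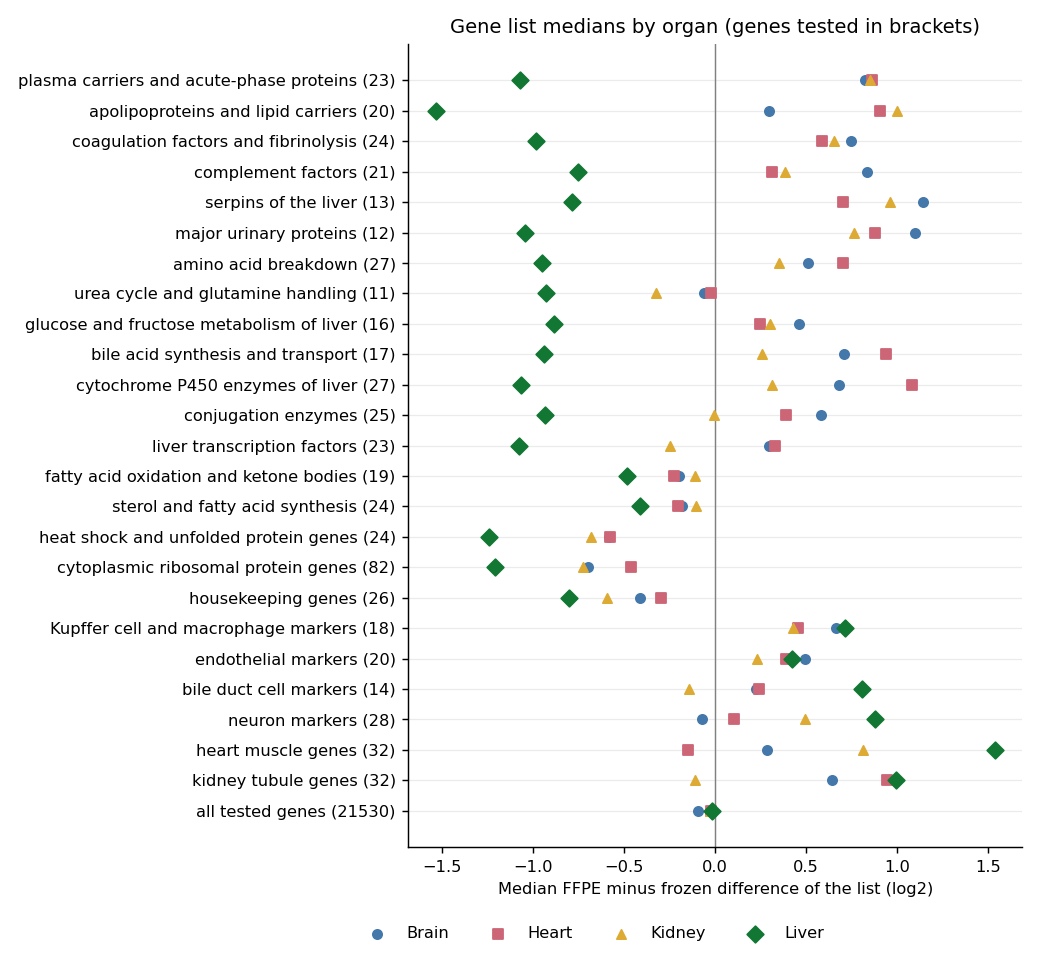
Median FFPE minus frozen difference (log2, horizontal axis) of gene lists in brain, heart, kidney and liver, 1 point per organ, with the number of tested genes in brackets. The liver points of the hepatocyte lists lie left of 0, down to -1.53 for apolipoproteins, while the points of the other organs lie near or right of 0; for neuron, heart muscle and kidney tubule genes the liver points lie right of 0.

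Genes that mouse liver expresses by sex were described apart, as the sex of the animals is not given here. The 17 genes higher in male liver had a median liver difference of -0.75, and Cyp2d9 and Slco1a1, counted above, passed. The 22 genes higher in female liver had a median of 0.00 in liver and 0 passed with limma. Frozen liver stood 2.25 above the other frozen organs at the first list and 0.57 at the second. Beside these lists, the median of 6 sex chromosome genes was -1.14 in liver and -0.05, -0.04 and -0.11 in brain, heart and kidney. The Y-linked gene Eif2s3y had a liver difference of -1.69, on 77 and 40 reads, against 0.11, -0.01 and 0.01 elsewhere, and Ddx3y, Kdm5d and Uty had -1.12, -1.16 and -1.24. Xist, the RNA of the inactive X chromosome, had 0.89 in liver and 0.92, 0.55 and 0.58 elsewhere. With limma 0 of the 6 passed (adjusted p = 0.106 for Eif2s3y, the lowest by excess), while the 4 Y-linked genes had an unadjusted p under 0.05, and the part of sex in the liver difference was not tested.

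Markers of the other cells of liver did not share the gap. The median differences in liver were 0.71 for 18 Kupffer cell and macrophage markers, 1.29 for 17 lymphocyte and neutrophil markers, 0.42 for 20 endothelial markers and 0.37 for 20 stellate cell, fibroblast and smooth muscle markers, with median excesses of 0.29, 0.31, 0.24 and 0.21. In frozen liver the median levels of these lists were 3.53, 2.86, 5.13 and 4.25, against 6.38 for the liver lists. Level and cell type cannot be told apart in this contrast. None of the markers on these lists passed with limma in either direction. Clec4f, a receptor of Kupffer cells, was at 4.73 in frozen and 4.80 in FFPE liver, and Stab2, of liver sinusoids, at 6.19 and 6.89. Over 14 bile duct cell markers the median excess was 0.57, at a median level of 3.01 in frozen liver. Krt19, the usual marker of bile ducts, went from 2.04 in frozen to 2.52 in FFPE liver, and the bile duct regulator Sox9 had a liver difference of -1.36 and no pass (adjusted p = 0.161).

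Genes active in all organs were lower in FFPE tissue everywhere and somewhat more so in liver. Over 795 genes of broadly active lists the medians were -0.40 in brain, -0.27 in heart, -0.42 in kidney and -0.75 in liver, with a median excess of -0.32. Of them 4 passed as lower and 3 as higher, both below the shares over all genes. The excess hung on the scaling: with library totals in place of the authors' scaled sizes, which moved the median excess of all genes from -0.05 to 0.25, it was -0.02. Of 82 cytoplasmic ribosomal protein genes 64 lay below all other organs, with a median of -1.20 in liver against -0.70, -0.46 and -0.73, and Rpl10 passed at -1.62 ± 0.36 (adjusted p = 0.0405). Rpl32l, which had the lowest excess of the list, is a copy of Rpl32 with which it may share reads. Its excess of -1.80 did not pass (adjusted p = 0.269), and its promoter is not shown. Small nucleolar RNA host genes had a median excess of -0.58, replication-dependent histone genes of -0.46 with H2bc21 passing at -1.18, mitochondrial ribosomal proteins of -0.40, nuclear respiratory chain genes of -0.37, proteasome subunits of -0.36 and housekeeping genes of -0.35. It was -0.25 for enzymes of nucleosomes and H3K4 methylation, -0.22 for RNA polymerase II subunits and -0.16 for 391 zinc finger genes, of which Zfp119b passed as lower at -1.89 beside 1 more, and Zfp462, Zfp651 and Zfp827 as higher, at 1.38, 1.39 and 1.54.

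Genes of the heat shock and unfolded protein responses, which all cells switch on under stress, had a median excess of -0.67. Of these 24 genes 20 lay below all other organs and all 24 were lower in FFPE liver, with a median of -1.24 against -0.58 in brain, -0.58 in heart and -0.68 in kidney. Hspa5, the chaperone BiP of the endoplasmic reticulum, whose CpG-rich promoter is printed above, was at 9.26 in frozen and 7.52 in FFPE liver. Its differences were -0.45 in brain, -0.58 in heart and -0.67 in kidney, close together, and the excess of -1.18 ± 0.25 passed (adjusted p = 0.0334), as did that of the cytosolic chaperone Hsp90aa1, -1.34 ± 0.27 (adjusted p = 0.0281). Immediate early genes had a median excess of -0.10, with 10 of 26 below and 9 above all other organs, near the shares over all genes. Zfp36, which speeds the decay of inflammatory messenger RNAs, alone of them passed, from 8.86 in frozen to 6.87 in FFPE liver with differences of 0.15, -0.61 and -0.43 elsewhere (excess -1.70 ± 0.30, adjusted p = 0.0173). Of 21 clock genes and 20 hypoxia genes 0 passed with limma, with median excesses of -0.25 and -0.08.

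Genes of the other organs showed the opposite in liver. Over 110 genes of the neuron, glia, heart muscle and kidney tubule lists the median difference was 1.04 in liver, against 0.20 in brain, 0.35 in heart and 0.48 in kidney, with a median excess of 0.66. Frozen liver was the lowest of the frozen libraries for 61 of them. Heart muscle genes had the highest list median in liver, 1.54, and Mybpc3, a thick filament protein, passed as higher at 1.83 ± 0.38 (adjusted p = 0.0318), as did Dlg4, the postsynaptic scaffold PSD-95, at 1.87 ± 0.44 (adjusted p = 0.0484). The Hox gene Hoxa9 passed at 2.63 ± 0.52 (adjusted p = 0.0273), from 1.35 in frozen and 4.04 in FFPE liver. Keratin and skin barrier genes had a median excess of 0.68, clustered protocadherins one of 0.40, Hox genes as a list one of 0.32 and 268 olfactory and vomeronasal receptor genes one of -0.10. Genes of the mitochondrial genome, whose share of reads is given above, had one of -1.14, with 0 of 15 passing in limma, and red blood cell genes one of -0.09 over 6 genes.

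Frozen liver was the lowest frozen library for 188 of the 189 genes that passed as higher, against 6326 of all genes, and the call favours such genes. They had a median log2 value of 3.63 there, where that of all genes was 4.94, and of 5.41 in FFPE liver. In frozen liver 20 of them had at most 3 reads, while others were well covered, such as Igf1r, the receptor of insulin-like growth factor 1, with 127 reads in frozen and 527 in FFPE liver. Insyn1, a protein of inhibitory synapses, kept its call in every setting that tested it. It had log2 values of 7.19 in frozen and 6.59 in FFPE brain, 5.67 and 4.85 in heart, 4.93 and 3.68 in kidney, and 1.90 and 4.58 in liver. It was thus lower in FFPE tissue in 3 organs and higher in liver, from 9 to 102 reads, with an excess of 3.57 ± 0.43 (adjusted p = 0.00569). Pilrb2, a receptor of myeloid cells, had the highest excess of the 8 genes named, which needed at least 50 reads in FFPE liver, 3.98 ± 0.83 (adjusted p = 0.032), on 2 reads in frozen and 158 in FFPE liver. Without that minimum 8 genes lay higher, up to 5.82 for Barx2 on 0 reads in frozen and 31 in FFPE liver. The ratio of the Pilrb2 reads, each taken over the authors' scaled library size, was 47.0 with a 95% exact counting interval of 12.8 to 392. Gpr149, Gm13238, Cdx1, Oxct2b and Gm6878 likewise had 2 or 3 reads in frozen liver, with ratios of 13.1 for Gpr149, 16.9 for Cdx1 and 12.5 for Oxct2b, and Tunar, a neural noncoding RNA, had 6. The promoters of Pilrb2 and Insyn1, the first by excess among the named genes that have 1 start site in the promoter table (Tunar has 2), are shown for their contrast in CpG pairs, in capitals (RefSeq, GRCm38.p6, 5′ to 3′ on the strand of the gene).
Pilrb2: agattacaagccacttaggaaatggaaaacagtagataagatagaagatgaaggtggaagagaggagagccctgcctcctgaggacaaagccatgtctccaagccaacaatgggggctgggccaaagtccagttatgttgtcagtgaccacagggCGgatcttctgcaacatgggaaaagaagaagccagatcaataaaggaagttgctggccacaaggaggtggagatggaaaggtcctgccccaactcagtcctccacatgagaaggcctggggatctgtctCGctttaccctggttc
Insyn1: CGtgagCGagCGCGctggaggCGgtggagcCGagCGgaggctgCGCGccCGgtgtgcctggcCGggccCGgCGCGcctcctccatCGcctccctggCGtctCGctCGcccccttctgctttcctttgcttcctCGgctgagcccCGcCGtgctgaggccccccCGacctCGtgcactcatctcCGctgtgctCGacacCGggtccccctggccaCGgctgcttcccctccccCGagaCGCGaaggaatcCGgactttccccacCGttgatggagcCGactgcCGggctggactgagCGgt
The Pilrb2 window (chr5:137871709-137872008, minus strand) holds 2 CpG pairs and the Insyn1 window (chr9:58488353-58488652, plus strand) 35.

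Level in the other organs went with the liver difference as it did with theirs, but more steeply. Genes were divided into 5 groups of 4306 by their mean log2 value in the 6 libraries of brain, heart and kidney, which leaves liver out. From the lowest to the highest group the median liver difference ran 0.91, 0.65, -0.12, -0.47 and -0.66, and the median brain difference 0.78, 0.37, -0.21, -0.37 and -0.40. The median excess accordingly went from 0.16 in the lowest to -0.25 in the highest group. Of the 301 liver genes 105 belonged to the lowest and 105 to the next group, where the median excess of all genes was positive. Over all 301 liver genes it was -1.41. These groups do not match level in liver, as their medians in frozen liver were 2.29 and 3.51, against 6.38 for the 301 genes. The part of level in liver was not tested. Gene length differed between the called groups: the 131 lower genes had a median length of 10118 bases and the 189 higher genes one of 28846, beside 19558 for all. Which part of a gene reads were counted over was not given in the sources used here.

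**Figure D4:**
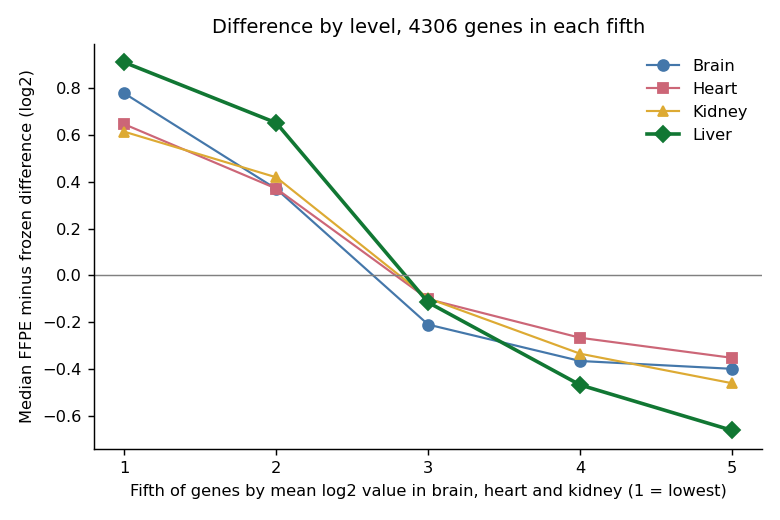
Median FFPE minus frozen difference (log2, vertical axis) in brain, heart, kidney and liver for genes in 5 groups of 4306 by their mean log2 value in brain, heart and kidney. All 4 lines fall from left to right, and that of liver falls furthest, from 0.91 to -0.66.

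Whether each organ loses its own genes to a like degree was then described. In its own organ the median FFPE minus frozen difference was -0.95 for the 301 liver genes, -0.07 for 28 neuron markers, 0.48 for 18 glia markers, -0.15 for 32 heart muscle genes and -0.11 for 32 kidney tubule genes. In FFPE tissue of their own organ 135 of the liver genes (44.9%) were more than 2-fold lower, against 17.3% of all genes in liver. In brain 1 neuron marker (3.57%) and 0 glia markers were, against 5.23% of all genes. The same held for 3 heart muscle genes (9.38%, against 7.01% of all) and 2 kidney tubule genes (6.25%, against 7.85%). With cyclic loess normalization the shares were 60.5% of liver genes, 10.7% of neuron markers, 0% of glia markers, 21.9% of heart and 15.6% of kidney genes. Those of all genes were then 13.95% in liver, 5.60% in brain, 7.37% in heart and 6.13% in kidney. A difference below those of the 3 other organs was common among the own genes of every organ. It held for 82.4% of the liver genes, against 34.9% of all genes in liver. The shares were 53.6% of neuron and 50% of glia markers in brain (23.5% of all genes). They were 59.4% of heart muscle genes (21.6% of all) and 65.6% of kidney tubule genes (20.0% of all). Set against the other 3 organs of the same preservation type, liver genes stood 2.66 higher in frozen and 1.08 in FFPE liver. Neuron markers stood 2.38 and 1.58 higher in brain, heart muscle genes 2.02 and 1.25 in heart and kidney tubule genes 1.87 and 0.85 in kidney. With libraries at equal spread liver genes went from 2.19 to 1.29, neuron markers from 2.07 to 1.88, heart genes from 1.74 to 1.52 and kidney genes from 1.60 to 0.97. In that setting the own-organ difference was -0.40 for the liver genes and 0.34, 0.35, 0.04 and 0.00 for neuron, glia, heart and kidney genes, so liver genes kept the lowest value. Each organ has 1 library of each type and its own lists, so these values carry no test.

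**Figure D5:**
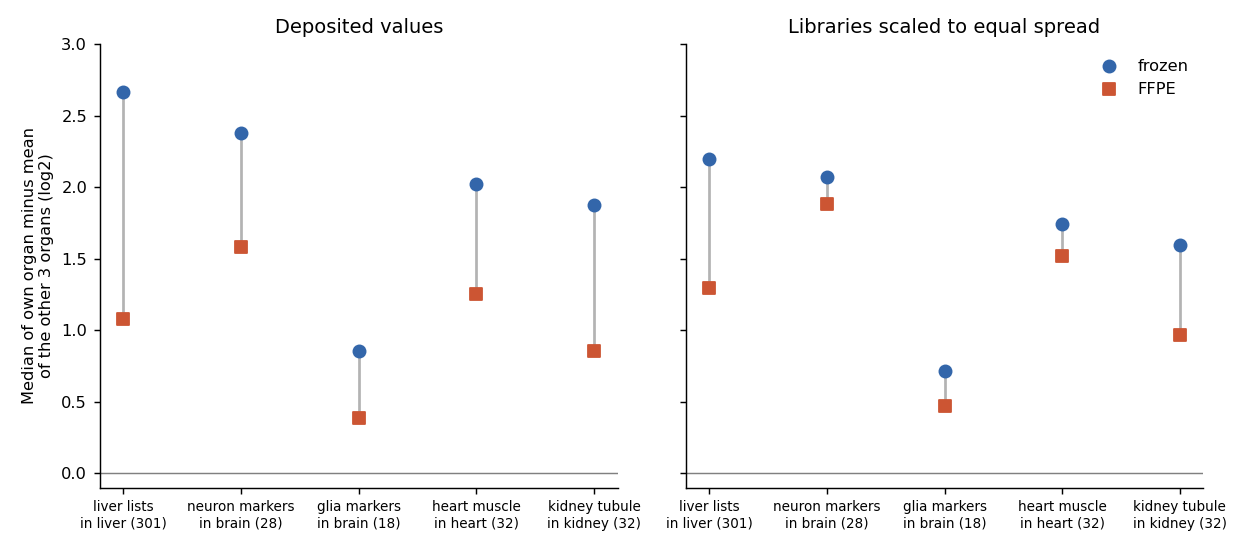
Median distance (log2, vertical axis) of each organ's own genes from the mean of the 3 other organs, in frozen (circles) and FFPE (squares) tissue, with the number of genes in brackets, on the deposited values (left) and with libraries scaled to equal spread (right). The gap between circle and square is widest for the liver genes on the left, 2.66 to 1.08, and narrower on the right, 2.19 to 1.29.

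Genes were also picked by FFPE tissue alone. The 92 genes that stood more than 4-fold above the other organs in FFPE liver had a median liver difference of -1.47 and medians of 0.59, 0.51 and 0.41 in brain, heart and kidney, and 83 of them lay below all other organs. The 44 genes more than 4-fold below the other organs in FFPE liver had a median liver difference of -0.75, with 29 below all other organs. The FFPE liver value enters that difference with a plus sign. Choosing genes low in FFPE liver therefore favours a negative median, while the choice of the 92 genes works against it, so the medians cannot be compared. Both classes were chosen on values that enter the difference, so no test was made. Genes that were more than 2-fold lower in FFPE liver and at the same time higher in FFPE brain, heart and kidney numbered 181, and 72 of these are on the liver lists. The mirror class, more than 2-fold higher in FFPE liver and lower in each other organ, held 124 genes.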

How the data were processed

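H3K4m3 signal per gene was measured in 4 organs and 2 preservation types. The authors deposited log2 values per gene, and the submitters' processing notes name mm10, Bowtie2, featureCounts and limma, without versions or roles. Each deposited log2 value equals the logarithm of reads plus 0.5, divided by a scaled library size, and whole reads were recovered from 100% of values within 0.001. They are not divided by gene length and carry no input correction. Columns were mapped to organ and preservation type by their names. Genes with a mean of at least 2 were fitted with limma 3.58.1 in R 4.3.3 (terms for 4 organs, FFPE, and liver by FFPE, empirical Bayes with trend, two-sided, Benjamini-Hochberg over 21530 genes). The method was checked on simulated data in which a gene had the same scatter in all organs. That check does not cover the wider spread of the liver differences. A gene passes at an adjusted p under 0.05. The labels do not tie libraries to different animals, and a p-value therefore reflects only scatter among libraries, part of which may be technical. Counting intervals cover counting error only, as amplified reads are not independent molecules. Coordinates and lengths come from RefSeq for GRCm38, the assembly that mm10 denotes, and 20618 tested genes matched.

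Members and the 47 gene lists were chosen with earlier results of these data known. Named genes were the 14 lowest and 8 highest by excess that passed, with a symbol, at least 50 reads (in frozen liver for the lowest, in FFPE liver for the highest) and a liver difference outside the range of the others, the 4 lowest among genes higher in the 3 other organs, and in each list the 3 lowest and the highest member. Further members named in the text are those that passed or are textbook genes of the list, chosen after their values were seen, and some members are not reported here. Alternatives were normalization, centring, spread, filter, weights, thinned depth and leaving out each other organ.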

Additional observations from a re-analysis of the deposited data

Results flagged for a closer look

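The liver difference was tested against that of the other organs gene by gene, and the genes that passed are given here with their excess. In limma 131 genes had a lower and 189 a higher difference in liver. Among the named genes the excess was -3.78 for Inhbc, -3.72 for Apon, -3.62 for Cpn1, -3.53 for Cyp8b1, -3.53 for Agxt, -3.50 for Apoc1, -3.47 for Gm8883, -3.44 for Crp, -3.35 for Tat, -3.27 for Cyp3a11, -3.26 for Mug1, -3.26 for Gm17830, -3.17 for Fgg and -3.15 for Ugt1a1. On the higher side it was 3.98 for Pilrb2, 3.68 for Gpr149, 3.60 for Gm13238, 3.60 for Tunar, 3.57 for Insyn1, 3.52 for Cdx1, 3.43 for Oxct2b and 3.38 for Gm6878.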

How the results depend on the processing

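Against 131 lower and 189 higher genes, quantile normalization gave 7 and 20, equal spread of libraries 4 and 11, a mean log2 value of at least 4 gave 241 and 314, no filter 29 and 39, precision weights 351 and 105, and library totals, chosen after seeing the data, 70 and 601; the cause was not tested, except that the filters change how many genes are tested. Leaving out brain, heart or kidney gave 86 to 363 lower and 58 to 397 higher genes, with 1 residual difference fewer. Counts were within 1.5 times of these with cyclic loess, centring, a mean of at least 0 and thinned depth. The median excess of the liver lists, -1.41, was -0.66 with quantile normalization and with equal spread, -1.61 with cyclic loess, -1.08 with a mean of at least 4 and -1.11 with library totals. That of the broadly active lists, -0.32, was -0.18 with quantile normalization, -0.14 with equal spread and -0.0197 with library totals. That of the brain, heart and kidney lists, 0.66, was 0.36 with quantile normalization, 0.40 with equal spread, 0.49 with a mean of at least 4, 0.87 with precision weights and 0.96 with library totals. The medians of these 3 groups of lists kept their sign in all settings run, while that of all genes went from -0.05 to 0.25 with library totals, and the own-organ medians of neuron and heart genes turned from -0.07 to 0.34 and from -0.15 to 0.04 with equal spread. Of the genes named for the lowest and highest excess, Insyn1 alone passed with equal spread, and Mug1, Pilrb2, Tunar and Insyn1 passed after quantile normalization. Count models on the recovered reads were planned and not run, since the deposited unit is log2. No paired analysis was possible because the columns carry no replicate number, beyond the differences within an organ that every fit uses. A liver library cannot be left out, as no liver difference then remains.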

Other observations

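A few genes outside the liver lists are given here by value, chosen after their values were seen and without a list or a test of a theme. Angptl4, a fasting-induced inhibitor of lipoprotein lipase, was at 8.33 in frozen and 6.27 in FFPE liver, with differences of -0.51 in brain, 0.39 in heart and -0.04 in kidney and an excess of -2.01 ± 0.36 (limma, adjusted p = 0.0179). Klf15, a glucocorticoid-induced factor of amino acid use, had an excess of -1.80 ± 0.32, Irs2, an insulin receptor substrate raised in fasting, one of -1.18 ± 0.26 and Tsc22d3, a glucocorticoid target also called Gilz, one of -1.11 ± 0.26. Alas1, the first enzyme of haem synthesis, had one of -1.24 ± 0.28. Other genes that glucocorticoids or fasting are known to raise went otherwise: Per1 had a liver difference of 1.09 and an excess of 0.36, Fkbp5 had a liver difference of 1.07 and an excess of 0.58, and neither passed. The labels state neither the feeding state of the animals nor whether frozen and FFPE liver came from the same animal.

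Liver genes outside the lists that passed as lower included the activin subunit Inhbe (-2.49), the glucose 6-phosphate transporter Slc37a4 (-2.43), the lipid droplet protein Hsd17b13 (-2.65), the FGF21 co-receptor Klb (-1.94) and the ferroxidase ceruloplasmin, Cp (-1.44). On the higher side, picked by hand from 189 genes, stood skeletal actin Acta1 (3.10), muscle glycogen phosphorylase Pygm (1.83), brain creatine kinase Ckb (1.95), the adhesion molecule Ncam1 (1.88), the axonal motor Kif1a (1.60) and the vesicular GABA transporter Slc32a1 (2.37). These were also chosen after their values were seen.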
